A study of Arabidopsis thaliana with 6 samples.

Results

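The plastid genome of Arabidopsis carries genes for core subunits of the photosynthetic complexes and for part of the machinery that transcribes and translates them. A list of 58 such genes was set against the gene symbols in the annotation of the ATH1 array, and 57 of them had a probe set of their own, out of 22746 probe sets tested. Each gene had 1 probe set. The remaining gene, ndhB, lies in the inverted repeat, and its only probe set names both copies. By the complex they serve, the genes comprised 5 of photosystem I (psa), 15 of photosystem II (psb), 6 of the cytochrome b6f complex (pet), 6 of the ATP synthase (atp), the Rubisco large subunit gene rbcL, 9 of the NDH complex (ndh), 4 of the plastid RNA polymerase (rpo), 6 of plastid ribosomal proteins (rpl and rps) and 5 others (accD, clpP, matK, ycf3 and ycf4).

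Transcripts were measured in total RNA of 3 eif3k samples and 3 wild-type samples, both in the Columbia ecotype. The eif3k line carries a T-DNA in intron 6 of At4g33250, the gene for subunit k of the cytosolic initiation factor eIF3. It is the only eif3k line used, and the wild-type lacks this insertion. In both groups the aerial part was taken at an age of 11 days. Plants grew at 22 °C on plates of 0.8% agar to which 1% sucrose had been added. The labels give a 16 h day with harvest 4 h after the lights came on, whereas the study's methods give continuous light for this mutant. The labels date the arrays of replicates 1 and 2 together, in both genotypes, and date the replicate 3 arrays of both genotypes later. Replicate 3 of eif3k (called eif3k 3 here, and likewise for the other arrays) is therefore described apart from the other arrays throughout.

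Plastid genes are mostly arranged in operons whose long transcripts are cut into smaller ones. Polymerases of different origin read them. The plastid-encoded polymerase (PEP), built from the rpo subunits, is bacterial in type and reads mostly the photosynthesis genes, while a phage-type nuclear-encoded polymerase (NEP) reads housekeeping genes such as accD and the rpoB operon. Plastid transcripts, unlike nuclear mRNAs, do not normally carry a stable poly(A) tail, and in plastids such tails mark RNA for decay. The study describes its arrays as biased towards polyadenylated RNA. The values below therefore need not follow the total amount of each plastid transcript.

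All values are log2 signals as deposited, on which a difference of 1 is 2-fold and the lowest possible value, the floor, is 2.25. The medians of the 6 arrays lay between 4.02 and 4.12, and 25.5% to 26.8% of probe sets were at the floor on each array. Precision is limited by there being 3 arrays per genotype. Of the plastid genes, petD and ndhF were at the floor on all 6 arrays, and ndhG and rpoB also averaged less than 4. These 4 were too dim for a difference to be relied on, and 53 genes averaged at least 4. Of the markers chosen to check the tissue, none of those for green shoots had a named probe set here; of the root markers, EXPA7 was at the floor and PYK10 had 10.87, 11.44 and 11.61 in eif3k and 10.62, 10.40 and 11.42 in wild-type. It was higher in eif3k in all 3 pairs, by 0.25, 1.04 and 0.19; its part in the results below was not tested. In RNA of a whole tissue, fewer plastids or cells and less transcript per plastid cannot be told apart.

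The first comparison asked whether eif3k and wild-type differed in these genes over all 6 arrays. None of the 57 was called by limma (adjusted p under 0.05 over all probe sets and at least 2-fold), beside 0.0% of all probe sets. At an unadjusted p under 0.05 there were also 0 of the 57, beside 3.05% (694) of all probe sets. The smallest unadjusted p among them was 0.197, for psbA, which encodes the D1 reaction centre protein of photosystem II (limma, adjusted p = 1.0). The mean was lower in eif3k for 53 of the 57, beside 8696 of all 22746 probe sets. Among those that averaged at least 4 it was lower for 51 of 53, beside 5801 of 11523. The median difference over the 57 was -0.847, against 0.00 over all probe sets. Between same-numbered arrays the median difference was -0.08 in pair 1, 0.00 in pair 2 and -2.29 in pair 3. Without eif3k 3 the median became 0.143, on the other side of 0. That sets the first-date eif3k arrays against all wild-type arrays, the later wild-type 3 among them. On the first date alone, with the dates alike in both genotypes, the median was -0.07. No gene differed at least 2-fold the same way in all 3 pairs, beside 0.0703% of all probe sets. The eif3k arrays all lay below the wild-type arrays for 1 gene, psbC, beside 2.31% of all probe sets.

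**Figure D1:**
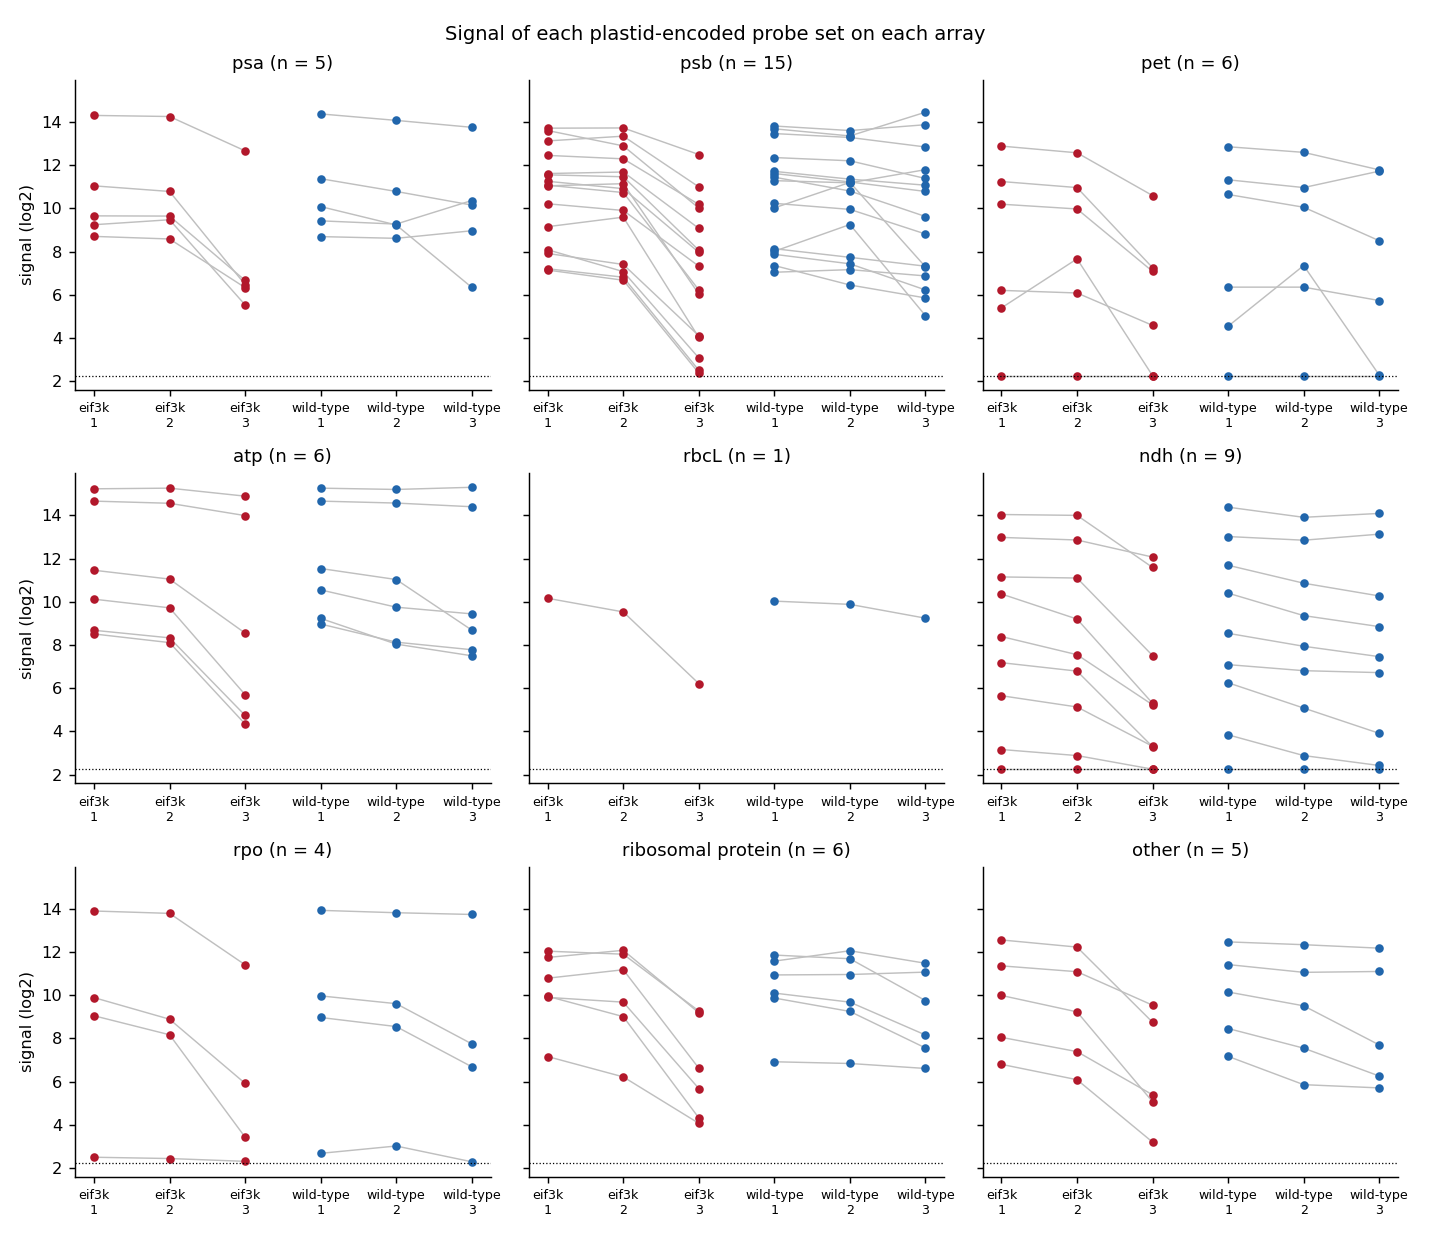
Log2 signal (vertical axis) of each plastid-encoded probe set on the 3 eif3k arrays (red) and the 3 wild-type arrays (blue), 1 panel per class; grey lines join the values of a probe set within a genotype and the dotted line is the floor of 2.25. In every class the genes that are not dim have their lowest value in eif3k 3, and the points of wild-type 3 spread apart from those of wild-type 1 and 2 for some genes, such as psbK and psaA.

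On the first date alone the 2 genotypes were close. The difference between the eif3k mean and the wild-type mean of replicates 1 and 2 had a median of -0.07 and ranged from -0.40 for rpoC1 to 0.74 for psbK. It was within 0.25 for 42 of the 57, beside 18808 of all 22746 probe sets. Among those that averaged at least 4 it was so for 40 of 53, beside 8270 of 11523. Of the 57, 0 reached 2-fold in either direction, beside 0.0835% of all probe sets that were lower and 0.404% that were higher. Among single pairs, psbK and psbI, small subunits of photosystem II from 1 operon, were more than 2-fold higher in eif3k 1 than in wild-type 1, at 1.14 and 1.02, beside 0.642% of all probe sets. In pair 2 the same genes differed by 0.34 and -0.06.

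On the later date eif3k 3 stood below wild-type 3 almost throughout. It was at least 2-fold lower for 45 of the 57 genes, beside 1.56% of all probe sets, and at least 2-fold higher for 0, beside 2.23%. It was at least 4-fold lower for 31, beside 0.347% of all probe sets. Only 5 probe sets of the 22746 (0.022%) were at least 16-fold lower in eif3k 3 than in wild-type 3, and all 5 belonged to plastid genes: psbC, petA, rps18, psbA and psbN. eif3k 3 was below all 5 other arrays for 54 of the 57, beside 14.8% of all probe sets. All 53 genes that averaged at least 4 had their lowest value of the 6 arrays in eif3k 3, beside 23.8% of all probe sets of that brightness. For 44 genes eif3k 3 was more than 2-fold below the lowest of the other 5 arrays, beside 0.633% of all probe sets. That date holds only 1 array per genotype, so the difference in pair 3 has no replicate of its own. Whether the genotype difference differed between dates was fitted as an interaction (later minus first), whose error comes from the first-date arrays alone. The interaction calls given below, for psaC, psaJ, psbC and rpoA, were all lost when only probe sets that averaged at least 4 were tested. So were the calls of every other probe set in that fit. Fewer of the 57 were called when any first-date array was left out.

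**Figure D2:**
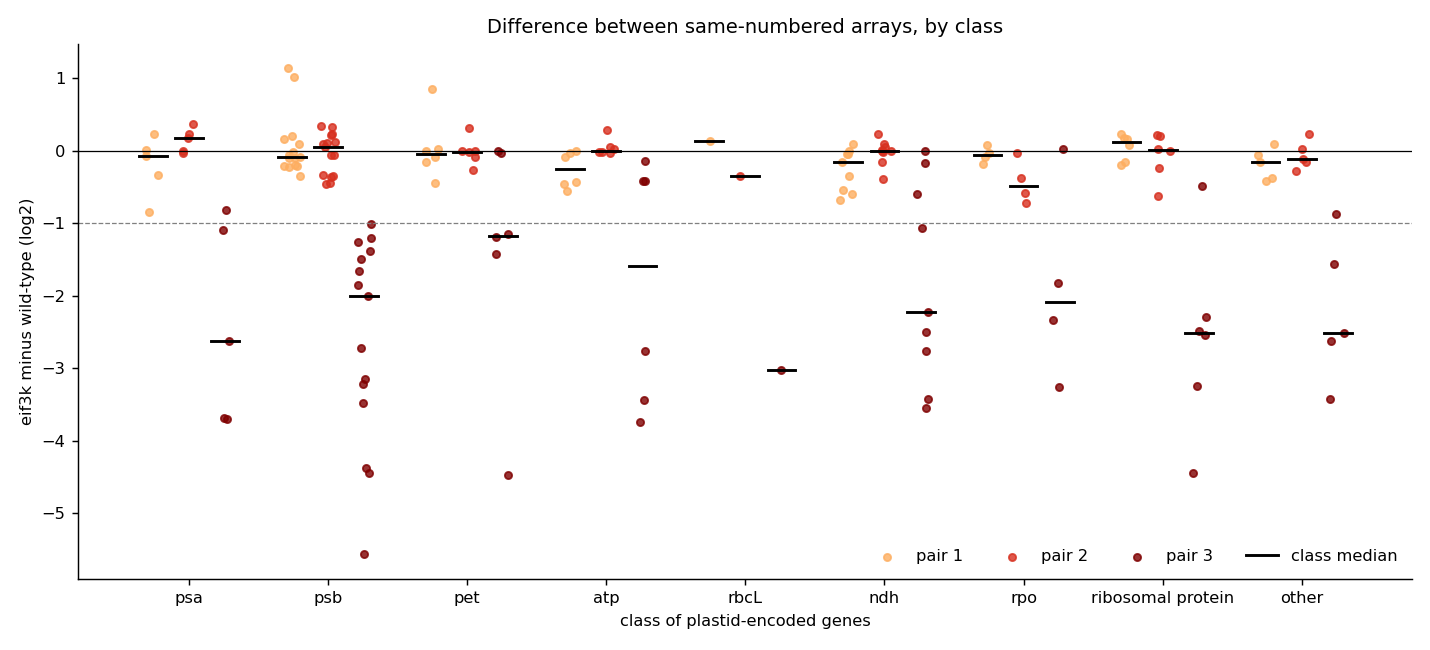
Difference between same-numbered arrays, eif3k minus wild-type (log2, vertical axis), for each plastid-encoded gene by class; points are genes in pair 1, 2 and 3, black bars are class medians and the dashed line marks 2-fold lower. The medians of pairs 1 and 2 lie between -0.48 and 0.18 in every class, and those of pair 3 between -3.03 (rbcL) and -1.17 (pet).

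The photosystem I genes had a median difference of -2.63 in pair 3. psaC, whose product binds the terminal iron-sulphur clusters, had signals of 8.70, 8.58 and 6.33 in eif3k and 8.69, 8.61 and 8.96 in wild-type. The other 5 arrays lay within 0.4 of each other, and eif3k 3 lay below all of them. The interaction was -2.62 with a standard error of 0.115 and was called over all probe sets (limma adjusted p = 0.0261). psaJ, a small membrane subunit, had signals of 9.65, 9.64 and 6.66 in eif3k and 9.42, 9.27 and 10.36 in wild-type. Here wild-type 3 was the highest array and eif3k 3 the lowest. The interaction was -4.0 with a standard error of 0.12 (limma adjusted p = 0.014), the smallest p of the 57 genes. psaI, another small subunit, differed by -3.68 in pair 3. psaA and psaB encode the paired reaction centre proteins and are co-transcribed. psaB had 14.30, 14.25 and 12.66 in eif3k and 14.37, 14.07 and 13.75 in wild-type. psaA had 9.24, 9.47 and 5.53 in eif3k and 10.08, 9.23 and 6.34 in wild-type. For psaA the later minus first difference was thus low in both genotypes, -3.83 in eif3k and -3.32 in wild-type, and the pair 3 difference was only -0.81.

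All 15 photosystem II genes were at least 2-fold lower in eif3k 3 than in wild-type 3, with a median of -2.0. psbC, for the inner antenna protein CP43, showed the lowest difference of the 57 genes. Its signals were 11.07, 10.73 and 6.22 in eif3k and 11.28, 11.18 and 11.79 in wild-type. The pair 3 difference of -5.57 is 47.5-fold, and the interaction of -5.24 ± 0.282 (standard error) was called (limma adjusted p = 0.0371). psbD, whose product D2 pairs with D1, shares the operon with psbC and differed by -3.22. psbA had 13.60, 12.89 and 10.01 in eif3k and 13.68, 13.35 and 14.45 in wild-type, so that wild-type 3 was the highest array. The pair 3 difference was -4.44 and the interaction of -4.17 did not pass the threshold (limma adjusted p = 0.181). psbB, for the other inner antenna protein CP47, differed by -3.15, and psbT and psbN beside it by -3.48 and -4.37. psbT and psbN were near the floor in eif3k 3, at 2.37 and 2.50, so that their differences may be larger than they appear. The genes of the cytochrome b559 operon differed less, by -1.49 for psbE, -1.20 for psbF, -2.72 for psbL and -2.0 for psbJ. psbM, for a small subunit, and psbH, for a phosphoprotein, differed by -1.38 and -1.66. psbK had the smallest difference of the class in pair 3, at -1.01. Its signals were 9.15, 9.59 and 4.02 in eif3k and 8.01, 9.25 and 5.03 in wild-type, low in both genotypes on the later date.

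The cytochrome b6f genes had a median of -1.17 in pair 3, and they were unlike each other. petA, for cytochrome f, had 11.24, 10.96 and 7.25 in eif3k and 11.32, 10.96 and 11.72 in wild-type. Its pair 3 difference of -4.47 is 22.2-fold. The interaction of -4.43 ± 0.363 (standard error) missed the threshold (limma adjusted p = 0.0771). petB, for cytochrome b6, differed by -1.19, petL by -1.42 and petN by -1.15. petG, a small subunit needed for the stability of the complex in tobacco, had 5.39, 7.66 and 2.25 in eif3k and 4.54, 7.35 and 2.28 in wild-type. Both replicate 3 arrays were at or near the floor, and replicates 1 and 2 lay more than 4-fold apart in either genotype. petD, for subunit IV, was at the floor.

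The ATP synthase genes, with a median of -1.59 in pair 3, also differed among themselves. atpE and atpB, for the epsilon and beta subunits of the soluble part, changed least of the 53 brighter genes between the dates in eif3k, by -0.36 and -0.62. atpE had 15.23, 15.26 and 14.89 in eif3k and 15.26, 15.20 and 15.30 in wild-type, which is 1.33-fold lower in pair 3. atpB differed by the same -0.41. Both lay near the highest signal in the table, 15.55, where arrays may respond less than proportionally. atpF, for a subunit of the membrane stalk, had 10.12, 9.72 and 5.70 in eif3k and 10.55, 9.75 and 9.44 in wild-type, a pair 3 difference of -3.74 (13.4-fold). Its operon neighbours atpH and atpI, for the membrane ring and its partner, differed by -3.44 and -2.76. atpA, for the alpha subunit and read from the same operon, differed by only -0.14. Its signals were 11.46, 11.05 and 8.55 in eif3k and 11.54, 11.03 and 8.69 in wild-type, so that both genotypes were low on the later date.

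rbcL had 10.16, 9.53 and 6.21 in eif3k and 10.03, 9.88 and 9.24 in wild-type. eif3k 3 was 8.17-fold lower than wild-type 3, and the other 5 arrays lay within 1 of each other. The interaction was -2.92 ± 0.515 (standard error; limma adjusted p = 0.23).

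The NDH complex passes electrons from ferredoxin back to the plastoquinone pool. Its genes had a median of -2.23 in pair 3. ndhE had 10.36, 9.20 and 5.30 in eif3k and 10.40, 9.36 and 8.85 in wild-type, a difference of -3.55 in pair 3. ndhD and ndhA differed by -3.43 and -2.76, and ndhI by -2.50. ndhC had 12.98, 12.86 and 12.07 in eif3k and 13.02, 12.85 and 13.13 in wild-type, only -1.06 in pair 3. Its operon neighbour ndhJ differed by -2.23. ndhH had 3.31 in eif3k 3 and 3.91 in wild-type 3, both low beside the first-date arrays, which ranged from 5.08 to 6.25.

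Among the subunits of the plastid RNA polymerase, rpoA had 13.90, 13.79 and 11.41 in eif3k and 13.93, 13.82 and 13.74 in wild-type. The 5 arrays other than eif3k 3 lay within 0.25 of each other, and the interaction of -2.30 ± 0.124 (standard error) was called (limma adjusted p = 0.0371). rpoC2 had 9.05, 8.17 and 3.43 in eif3k and 8.97, 8.55 and 6.69 in wild-type, and rpoC1 had 9.89, 8.89 and 5.92 in eif3k and 9.97, 9.61 and 7.75 in wild-type. For these 2 genes wild-type 3 itself lay about 4-fold below the first-date wild-type mean, with differences of -2.07 and -2.04, and eif3k 3 was lower still. rpoB, the first gene of that operon, was too dim to compare, at 2.29 to 3.02.

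The plastid ribosomal protein genes had a median of -2.51 in pair 3, with 5 of 6 at least 4-fold lower. rps18, of the small subunit, had 10.79, 11.18 and 6.62 in eif3k and 10.94, 10.96 and 11.07 in wild-type, a 21.9-fold difference in pair 3. Its interaction of -4.49 ± 0.311 (standard error) just missed the threshold (limma adjusted p = 0.0568). rpl20, of the large subunit, had 9.95, 9.01 and 4.32 in eif3k and 9.87, 9.25 and 7.56 in wild-type. rps15, of the small subunit, had 7.16, 6.22 and 4.07 in eif3k and 6.92, 6.84 and 6.61 in wild-type, a difference of -2.54 in pair 3. rps2 and rpl33 differed by -2.48 and -2.29. rpl36 was the exception, with 12.04, 11.90 and 9.27 in eif3k and 11.86, 11.69 and 9.75 in wild-type. Both of its replicate 3 arrays were low, with a later minus first difference of -2.70 in eif3k, against -2.03 in wild-type. The pair 3 difference was -0.48.

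Of the 5 other genes, matK, for a splicing factor of plastid introns, had 12.56, 12.23 and 8.75 in eif3k and 12.47, 12.34 and 12.18 in wild-type, a difference of -3.43 in pair 3. The interaction of -3.42 ± 0.282 (standard error) missed the threshold (limma adjusted p = 0.078). ycf3 and ycf4, for assembly factors of photosystem I, differed by -2.63 and -2.51, and clpP, for the plastid-encoded subunit of the Clp protease, by -1.56. accD, for a subunit of plastid acetyl-CoA carboxylase and a classic target of NEP, differed by -0.87, with 8.05, 7.39 and 5.39 in eif3k and 8.46, 7.55 and 6.26 in wild-type.

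Over all classes, limma called the genotype by date interaction for 4 of the 57 genes (psaJ, psaC, psbC and rpoA), all lower, beside 0.492% of all probe sets. At an unadjusted p under 0.05 it reached 34 of the 57, all lower, beside 6.34% of all probe sets that were lower at that level and 13.9% in either direction. The median interaction was -2.30. Without eif3k 1 there was 1 call, and without eif3k 2, wild-type 1 or wild-type 2 there were 2 each. If only the 11523 probe sets that averaged at least 4 were tested, no probe set of any kind was called, plastid or other.

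The later arrays were also set against the first-date arrays within each genotype. This compares 1 array with 2, and the single array, which has no spread of its own, is assumed to vary like the first-date arrays. Unlike the interaction, these comparisons were tested only on all probe sets and with all arrays kept. eif3k 3 was lower than the mean of eif3k 1 and 2, with a median difference of -3.12, or 8.69-fold, and was at least 2-fold lower for 50 of the 57 genes, beside 2.24% of all probe sets. limma called 10 of them, all lower, beside 0.892% of all probe sets; these were psaC, psaJ, psbC, psbF, psbN, petN, rpoA, rps18, rpl36 and matK. At an unadjusted p under 0.05 there were 50, all lower, beside 6.54% of all probe sets. Wild-type 3 was lower than the mean of wild-type 1 and 2, with a median difference of -0.715, or 1.64-fold. It was at least 2-fold lower for 21 genes, beside 1.65% of all probe sets, and at least 2-fold higher for 1, psaJ, beside 2.04%. None of the 57 was called in wild-type, beside 0.497% of all probe sets, and 15 had an unadjusted p under 0.05 (limma), of which 13 were lower, beside 14.7% in either direction and 6.18% lower. Wild-type 3 was below all 4 first-date arrays of both genotypes for 42 of the 57, beside 18.8% of all probe sets.

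**Figure D3:**
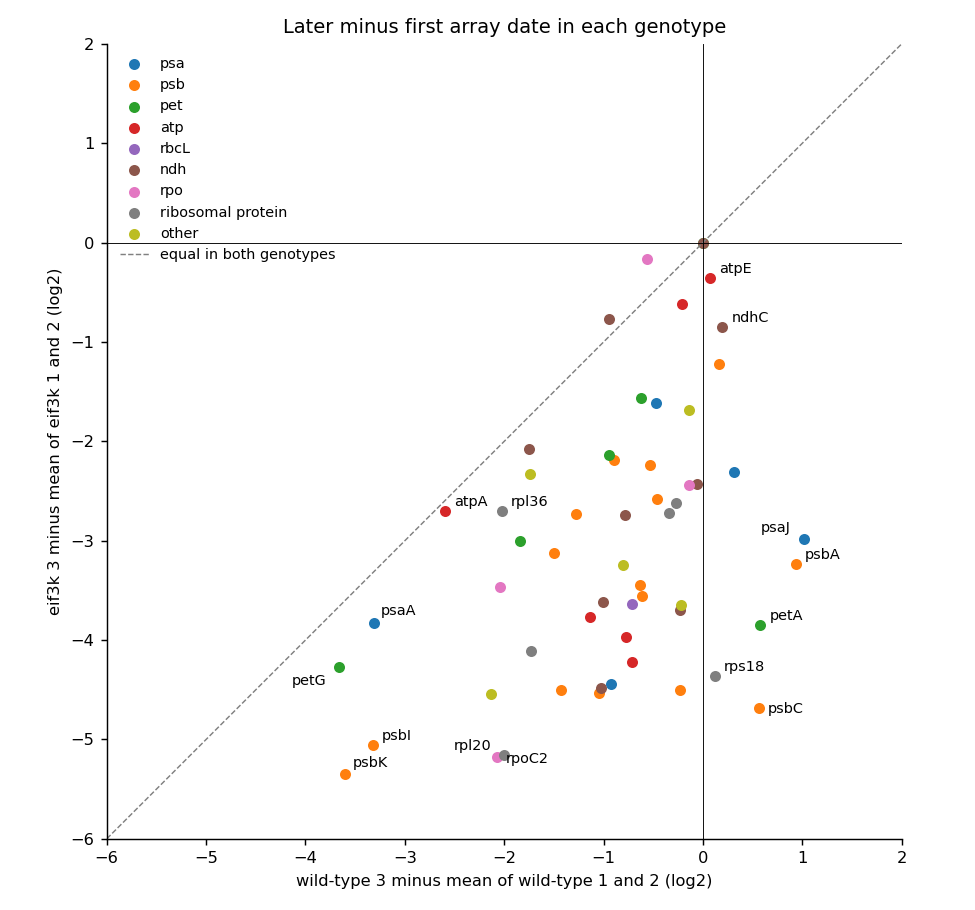
Later minus first array date (log2), with eif3k on the vertical axis and wild-type on the horizontal axis; each point is a plastid-encoded gene, coloured by class, and the dashed line marks equal differences in both genotypes. All genes except the 4 dim ones lie below the line; psbK, psbI, petG, psaA and atpA are low in both genotypes, while psbC, psbA, petA and psaJ are low in eif3k 3 and above 0 in wild-type.

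The genes did not order alike in the 2 genotypes. Over the 53 genes that averaged at least 4, the later minus first differences of eif3k and of wild-type correlated with r = 0.418 (Spearman rho 0.399), beside r = 0.575 over the 11523 probe sets of that brightness; genes of 1 array share its processing and are not independent. In wild-type, the genes lowest on the later date were petG (-3.67), psbK (-3.60), psbI (-3.32), psaA (-3.32) and atpA (-2.60), and the genes highest were psaJ (1.02), psbA (0.94), petA (0.58) and psbC (0.56). Chosen for those values, the first set had small differences in pair 3, from -0.03 to -1.26. The -0.03 is that of petG, at or near the floor on both replicate 3 arrays. The second set had large differences, from -3.70 to -5.57. Both sets share wild-type 3, and a low value there makes the pair 3 difference smaller.

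Replicates 1 and 2 of the first date also shared a pattern. The replicate 2 minus replicate 1 differences of eif3k and of wild-type correlated with r = 0.736 (Spearman rho 0.523) over the 53 genes, beside -0.05 over all probe sets of that brightness. petG was the clearest case, with replicate 2 higher than replicate 1 in both genotypes.

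Signals of different probe sets also reflect their probes, so the first-date signal is only a rough guide to brightness. It went with the pair 3 difference only weakly (r = 0.151 over the 53 genes). By bands of the first-date mean, the median pair 3 difference was -2.54 in 11 genes from 4 to 8, -2.70 in 14 from 8 to 10, -2.15 in 16 from 10 to 12, -1.62 in 8 from 12 to 14, and -0.75 in 4 from 14 to 16. Few genes lay in the last band, and it held atpE, atpB, psaB and ndhI.

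Position on the plastid genome was not used to choose the genes. The 57 include at least 2 genes each of 14 groups known to be co-transcribed, in whole or in part. Among the genes that averaged at least 4, the pair 3 differences of successive genes in map order correlated at 0.122 over 52 pairs. These pairs include genes of different operons, so the value does not bear on co-transcribed genes alone. Within the petL operon the difference ran from -4.45 (rps18) to -0.03 (petG). petG was at or near the floor on both replicate 3 arrays, at 2.25 and 2.28, so its value is not a measured small difference. The next smallest in that operon was -1.42 (petL). Within the psbDC operon the difference ran from -5.57 (psbC) to -1.85 (psbZ). In the atpI operon, rps2, atpI, atpH and atpF lay between -3.74 and -2.48 while atpA stood at -0.14. The closest groups were atpB with atpE, psbK with psbI (-1.01 and -1.26) and psaA with psaB (-0.81 and -1.09). psaA and psaB nevertheless differed in wild-type, where the later minus first difference was -3.32 for psaA and -0.47 for psaB.

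**Figure D4:**
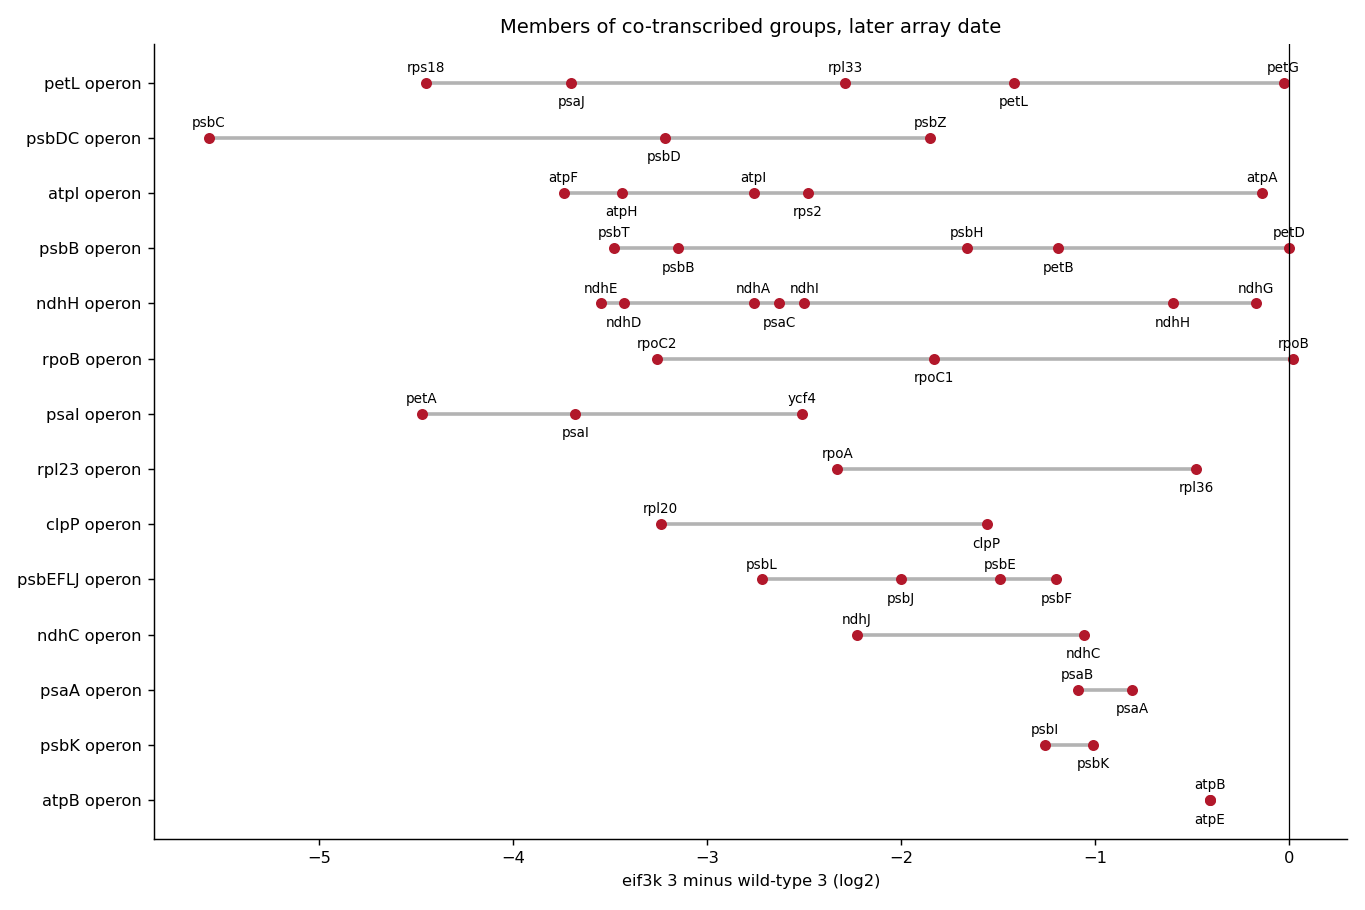
Difference eif3k 3 minus wild-type 3 (log2, horizontal axis) of the genes in 14 co-transcribed groups (rows, widest range at the top); each point is a gene and the bar spans the group. Genes of a group differ by up to 4.42, as in the petL operon, whereas atpB and atpE coincide at -0.41. The points of petG, petD, rpoB and ndhG, which end their bars near 0, are at or near the floor on both arrays and can show little difference.

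Other groups of transcripts were set beside these genes. A further 20 probe sets named other plastid-encoded genes or both copies of repeated ones, mostly ribosomal proteins. Their median was -2.40 in pair 3, beside -0.09 in pair 1 and -0.03 in pair 2, and 16 were at least 2-fold lower in eif3k 3. For nuclear-encoded plastid ribosomal proteins, 49 probe sets gave a median of -0.06 in pair 3 and a range of -0.64 to 0.95. Nuclear genes for partner subunits and plastid polymerases were listed as well, but only 10 of 80 had a named probe set. These had a median of 0.01 and a range of -0.34 to 0.40 in pair 3. They included PSAE1 and PSAN of photosystem I, PSBW and PSBY of photosystem II, PETM of the cytochrome b6f complex, ATPC1 of the ATP synthase and NDHL, NDHN and NDHS of the NDH complex. PSAN and ATPC1, of the same complexes as psaC and atpF, differed by 0.21 and -0.04. The polymerase gene RPOTMP was at the floor. limma called 0 of the nuclear genes in eif3k against wild-type, beside 0.0% of all probe sets. At an unadjusted p under 0.05 (limma) there were 1 of the 10 and 2 of the 49, beside 3.05% of all probe sets. These counts do not set the nuclear genes apart, as 0 of the 57 plastid genes were called either. Mitochondrion-encoded genes had 18 probe sets, but 17 averaged under 4, so that little can be read from their median of -0.01. The other one, nad4 of respiratory complex I, had 5.87, 5.80 and 4.72 in eif3k and 6.71, 5.86 and 6.00 in wild-type. eif3k 3 was its lowest array, with a difference of -1.28 in pair 3.

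A control probe set on the array moved with the plastid genes. The one for 25S rRNA, a nuclear-encoded RNA of the cytosolic ribosome that carries no stable poly(A) tail, had 12.34, 12.04 and 8.13 in eif3k and 12.87, 12.23 and 12.85 in wild-type. The difference of -4.72 between eif3k 3 and wild-type 3 was larger than that of 52 of the 53 brighter plastid genes, and it was not low in wild-type 3. The control for 5S rRNA was at or near the floor throughout. The control probe sets for the 3′ ends of actin, GAPDH and ubiquitin mRNAs differed by -0.43 to 0.99 in pair 3. The first ubiquitin one had 13.20, 13.55 and 13.45 in eif3k and 13.36, 13.31 and 13.46 in wild-type, whereas the first GAPDH one had 12.78, 13.04 and 11.69 in eif3k and 12.78, 12.62 and 12.12 in wild-type, and the second 11.40, 11.81 and 11.43 in eif3k and 11.32, 11.29 and 10.44 in wild-type. The 5′ controls of the same mRNAs differed by -0.21 to 1.16 in pair 3. The highest of these, for actin, had 8.54, 8.66 and 8.80 in eif3k and 8.46, 8.32 and 7.64 in wild-type. The mRNA controls thus differed between the replicate 3 arrays as well, more often upwards than downwards in eif3k 3. The part of these differences in the plastid result was not tested.

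**Figure D5:**
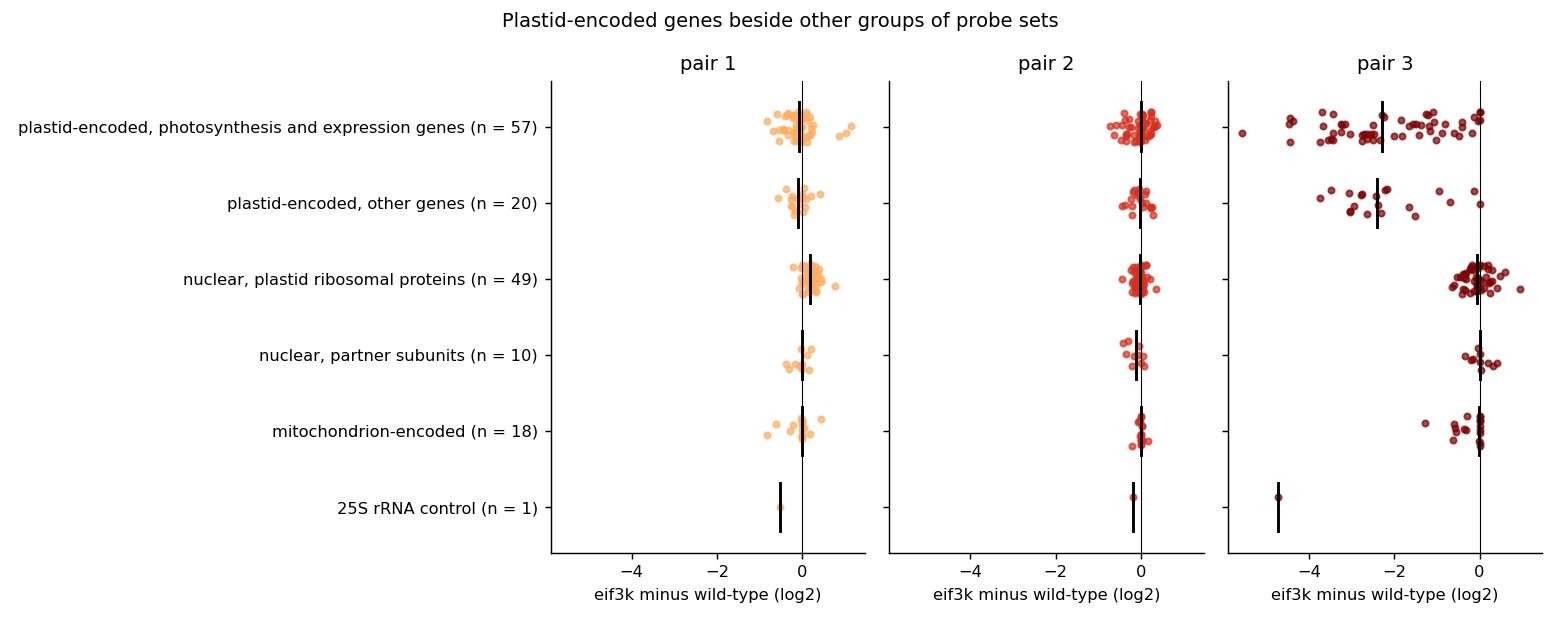
Difference eif3k minus wild-type between same-numbered arrays (log2, horizontal axis; 1 panel per pair) for 6 groups of probe sets (rows); points are probe sets and black bars are medians. In pair 3 the plastid-encoded groups have medians of -2.29 and -2.40 and the 25S rRNA control stands at -4.72, whereas the medians of the nuclear groups lie between -0.06 and 0.01; the mitochondrial group is dim except for nad4, at -1.28.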

How the data were processed

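Per the labels, the authors prepared total RNA of aerial parts and hybridised it to ATH1 arrays. The deposited values are log2 signals, 1 per probe set, made by the authors with GCRMA (version not given in the sources used here), which corrects background from probe sequence and quantile-normalizes the arrays together. That the logs are to base 2 was read from the method and from how far the values reach. A shift of all transcripts alike would thus be removed. The study's own methods name another summary of the arrays.

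Of 22810 probe sets, 64 array controls were left out of the tests. The platform annotation listed 14016 of the 22746 probe sets tested, 13513 with 1 gene and 503 with several; the others are unnamed here. Map order came from the RefSeq gene table, without coordinates. The nuclear-encoded plastid ribosomal proteins were taken by probe set from the study's supplement, and that list was added after values had been seen. The members, lists and tests were chosen with earlier results of these data known.

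Differences were tested with limma 3.58.1 (R 4.3.3; lmFit and eBayes, 2-sided) and no block; p-values were adjusted by Benjamini-Hochberg across every probe set tested, and genes were called at an adjusted p under 0.05 and at least 2-fold. The prior had 0.388 degrees of freedom. For array date, 4 cells (genotype by date) were fitted, and the single later arrays were assumed to vary like the first-date ones. Class values are medians of differences within a probe set; signals of different probe sets were used only to sort them roughly by brightness. Every gene is named; those in each class with the smallest p and with the highest and lowest pair 3 difference are given with the signal on each array or its range, by rule, and others were added where their values stood out.

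Nothing in the labels says that samples of a genotype came from separate cultures. The study counts the wild-type controls of its eif3k experiment as biological replicates, but does not say so of the eif3k samples. The p-values therefore measure the spread between these samples, which may be in part technical. By the labels the replicate 3 arrays have a date to themselves. Deviations from the mean of the genotype, over probe sets above the floor, gave correlations of 0.242, 0.373 and 0.539 for equal numbers, so the numbers were taken to pair the arrays. Within the first date unlike numbers correlated as much, at 0.304 and 0.396. Fits were repeated with a replicate or date block, on the first date alone, with other scalings and without dim probe sets. They were also repeated with a trended prior, with array weights, at other thresholds and without each array. The tests of later against first date within a genotype were not repeated.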

Additional observations from a re-analysis of the deposited data

Results flagged for a closer look

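The limma interaction of genotype with array date, adjusted over all probe sets, was called for 4 plastid genes. The later date holds 1 array per genotype, so this takes its error from the first-date arrays. No probe set of any kind was called when dim probe sets were left out. The interaction was -5.24 for psbC, -4.0 for psaJ, -2.62 for psaC and -2.3 for rpoA.

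Some values went one way in pairs 1 and 2 and the other way in pair 3. Those described here are from the class medians and the genes described by rule. Of the other genes, psbF (0.10, 0.09 and -1.20), rpl33 (0.17, 0.02 and -2.29) and petG (0.85, 0.31 and -0.03) did so too. petG was at or near the floor on both arrays of pair 3. For the class median this was not tested. The median of the plastid ribosomal protein genes was 0.125 in pair 1 and 0.01 in pair 2, and -2.51 in pair 3. psaJ was higher in eif3k by 0.23 and 0.37 in pairs 1 and 2 and differed by -3.7 in pair 3; its interaction is given above. psbK was higher by 1.14 and 0.34 and differed by -1.01 in pair 3 (limma interaction, unadjusted p = 0.217, adjusted p = 0.765). rpl36 was higher by 0.18 and 0.21 and differed by -0.48 in pair 3 (limma interaction, unadjusted p = 0.0463, adjusted p = 0.35). rpoB, whose signal was too dim to compare, differed by -0.18 and -0.58 in pairs 1 and 2 and by 0.02 in pair 3 (limma interaction, unadjusted p = 0.264, adjusted p = 0.84).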

How the results depend on the processing

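No plastid gene was called in eif3k against wild-type under any of the alternatives tried, with the replicate number as a block included, and the smallest adjusted p among them was 0.876, on the first date alone. The median difference with the replicate block, -0.847, equals that without it by construction, as each number holds 1 array of each genotype. With arrays left out singly it ranged from -1.298 (without eif3k 1) to 0.143 (without eif3k 3), where 8 of the 9 class medians also changed sign. Each such omission leaves the array dates unequally shared between the genotypes. On the first date alone the median difference was -0.07, with class medians from -0.265 (rpo) to -0.01 (psa). With array weights the median difference was -0.387. Relative to the 25S rRNA control probe set it was 0.967. That control itself differed by -1.813, and this setting subtracts that value from every probe set. The plastid genes therefore stand no higher among all probe sets than without it. Of 22 genes described by rule, 10 changed sign when some array was left out, 9 of them without eif3k 3. On the first date alone 4 of the 22 changed sign.

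The count of interaction calls was 4. It was 0 among probe sets that averaged at least 4, 8 with a trended, robust prior, and 8 at an adjusted p under 0.10 with no fold criterion, an alternative chosen after seeing the data. With first-date arrays left out singly it ranged from 1 to 2. The median interaction of -2.3 ranged from -2.355 to -2.03 under the same omissions. The 45 genes at least 2-fold lower in eif3k 3 than in wild-type 3 stayed within 1.5 times that count under each alternative run, whereas the 21 that were so in wild-type 3 against the first date became 10 at a 4-fold limit; these alternatives were also added later. Each comparison across dates rests on 1 array per genotype, and the 4 dim genes can show little or no decrease.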

Other observations

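The probe set that names both copies of ndhB was near the floor on all arrays, with 2.26, 2.42 and 2.25 in eif3k and 2.25, 2.30 and 2.25 in wild-type. Taking it in left the counts of calls unchanged at 0 for eif3k against wild-type and 4 for the interaction.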
